A study of Mus musculus with 3 samples.

Results

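The genes described here are 10 genes grouped under clear cells, the acid-secreting cells of the epididymal duct. Of these genes, 7 encode parts of the proton pump, and 3 are Foxi1, a transcription factor, and genes grouped with it. They were taken by symbol from the 23538 genes in the files, and all 10 were present, each on 1 row. They comprised 5 subunits of the vacuolar proton pump (V-ATPase) that few cell types make (Atp6v1b1, Atp6v0a4, Atp6v0d2, Atp6v1g3 and Atp6v1c2), 2 subunits made by nearly every cell (Atp6v1a and Atp6v1e1), and Foxi1, Dmrt2 and Slc4a9. Epididymis of adult male ICR mice, an outbred strain, was sequenced as RNA in 3 groups, with 1 library each. Mice of the Cas+T group (5 mice) had both testes removed and, from day 14 after surgery, received testosterone propionate in corn oil under the skin at 5 mg/kg for 10 days in a row. The Cas+CO group (5 mice) was castrated in the same way and received corn oil alone. The Sham group (3 mice) was operated on with the testes left in place, and no injection is recorded for it. The labels do not give the age beyond adult or how many mice of a group entered its library.

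The V-ATPase moves protons across membranes at the cost of ATP. Its cytosolic part, V1, burns ATP, and its membrane part, V0, passes the protons. Every cell needs it in lysosomes and the Golgi, and a few specialised cells, such as intercalated cells of the kidney and clear and narrow cells of the epididymis, place it on the cell surface. These cells use isoforms of several subunits that most other cells hardly make. In mice Foxi1, a forkhead transcription factor, is needed for their pump in kidney, inner ear and epididymis. The acid lumen that results keeps sperm quiescent during storage, and male mice without Foxi1 are infertile.

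Levels are given as TPM (transcripts per 1000000, a level scaled to gene length and library total), obtained from the deposited log2 values. With 1 library per group no value carries a replicate error and no test across animals exists, so each ratio compares 2 libraries. TPM keeps no record of depth, which is therefore unknown, and no counting interval is given. A log2 ratio is the difference of log2(TPM + 1), and a gene is called higher or lower when that ratio reaches 2-fold and either library of the pair held 1 TPM or more of it. The median of all genes compared was not 0: it stood at 0.76 for Cas+CO over Sham, −0.46 for Cas+T over Cas+CO and 0.30 for Cas+T over Sham. Scaling the libraries to equal medians moved Cas+T by −0.35 and Cas+CO by −0.80 on the log2 scale relative to Sham. Counts are therefore given as deposited and after this median scaling.

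Most of the pump subunits that few cell types make, and Foxi1 and Dmrt2 with them, stood highest in the castrated library without testosterone. That order was common in these libraries. Over all genes compared, the lower quartile of the log2 ratio was 0.23 for Cas+CO over Sham, and the upper quartile was −0.014 for Cas+T over Cas+CO. Of the 10 genes, 9 reached 1 TPM in Cas+CO or Sham, and 7 of these 9 were at least 2-fold higher in Cas+CO than in Sham and none lower, where 37.5% of all 16170 genes compared were higher and 6.49% lower. After median scaling 5 of 9 were higher, against 13.0% of all genes, and 1 was lower, against 11.7%. The median log2 ratio of the 9 genes was 1.93, which is 1.16 above the median of all genes. In Cas+T against Cas+CO, 4 of 9 were lower and none higher, against 23.4% and 6.91% of all 16152 genes. After median scaling 3 were lower, against 11.9%, and 1 was higher, against 9.40%. In Cas+T against Sham, 1 of 9 was higher and none lower, against 5.20% and 2.76% of all 14620 genes. With medians made equal none was higher or lower, against 2.11% and 3.99%. At a limit of 4-fold, 4 of 9 were higher and none lower in Cas+CO than in Sham (7.59% and 2.55% of all genes). None passed 4-fold in Cas+T against Cas+CO (2.50% higher and 5.31% lower over all genes) or in Cas+T against Sham (0.465% and 0.732%). The tissue was measured in bulk, and TPM is a share of the library. More clear cells and more RNA of these genes per cell therefore cannot be told apart in any of these ratios. Nor can either be told from less RNA of other genes or from RNA of other cell types.

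**Figure D1:**
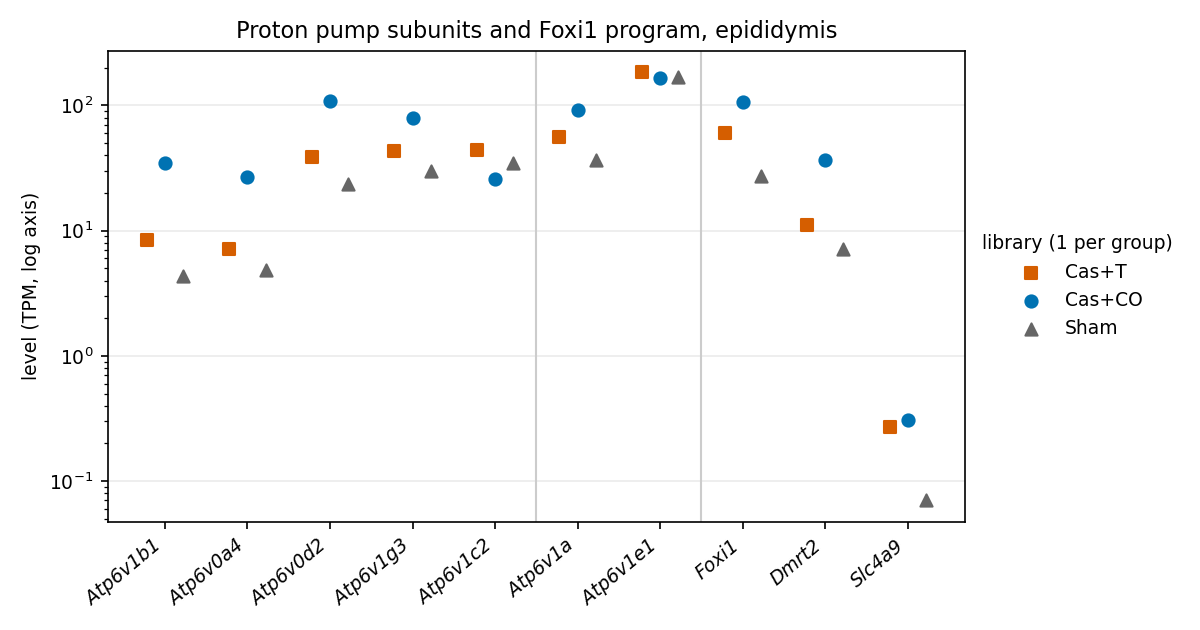
Level of each of the 10 genes in TPM on a log axis in the Cas+T, Cas+CO and Sham libraries, 1 point per library and no error bars because there is 1 library per group; grey lines part restricted subunits, general subunits and the Foxi1 group. Among the 9 genes that reached 1 TPM, the Cas+CO point is the highest for all but Atp6v1c2 and Atp6v1e1, and Slc4a9 lies under 1 TPM in all 3 libraries.

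Among the subunits of V1, Atp6v1b1 (ENSMUSG00000006269; GRCm38 chromosome 6, 83742990 to 83758855, plus strand) encodes B1, the form of the nucleotide-binding B subunit found in acid-secreting cells. It was at 8.44 TPM in Cas+T, 34.8 TPM in Cas+CO and 4.36 TPM in Sham. Cas+CO was high and the other libraries low, with Sham the lowest. The log2 ratio was 2.74 for Cas+CO over Sham, 1.98 above the median of all genes and the largest of the 10 genes. It was −1.92 for Cas+T over Cas+CO and 0.82 for Cas+T over Sham. In TPM without the added 1, Cas+CO was 7.97-fold above Sham and Cas+T 4.12-fold below Cas+CO.

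Atp6v1g3 (ENSMUSG00000026394; chromosome 1, 138273738 to 138289462, plus strand) encodes G3, a form of a stalk subunit that is best known from the kidney. Its level was 43.2 TPM in Cas+T, 79.8 TPM in Cas+CO and 30.1 TPM in Sham. The order of the libraries was that of Atp6v1b1, with smaller steps. The log2 ratio was 1.38 for Cas+CO over Sham and passed the 2-fold limit as deposited, but at 0.60 after median scaling it did not. For Cas+T over Cas+CO it was −0.87, within the limit.

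Atp6v1c2 (ENSMUSG00000020566; chromosome 12, 17284721 to 17329359, minus strand), which encodes the C2 form of the subunit that links V1 to V0, ran the other way. It was at 44.2 TPM in Cas+T, 25.9 TPM in Cas+CO and 34.5 TPM in Sham, so Cas+CO held the lowest level. The log2 ratio was −0.40 for Cas+CO over Sham, within the limit as deposited, and −1.16 after median scaling, past it as lower. For Cas+T over Cas+CO it was 0.75 as deposited and 1.16 after median scaling, past the limit as higher.

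Of the membrane part V0, Atp6v0a4 (ENSMUSG00000038600; chromosome 6, 38048483 to 38124586, minus strand) encodes a4, the form of the proton-path subunit of the pump on the surface of intercalated cells. It was at 7.18 TPM in Cas+T, 27.0 TPM in Cas+CO and 4.84 TPM in Sham. The log2 ratio was 2.26 for Cas+CO over Sham and −1.77 for Cas+T over Cas+CO. Atp6v0a4 and Atp6v1b1 were the least abundant restricted subunits in Cas+T and in Sham, while in Cas+CO Atp6v1c2 was the least abundant.

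Atp6v0d2 (ENSMUSG00000028238; chromosome 4, 19876841 to 19922605, minus strand) encodes d2, a subunit that joins V0 to the stalk and that osteoclasts and some macrophages make as well. It was at 38.9 TPM in Cas+T, 108 TPM in Cas+CO and 23.7 TPM in Sham. In Cas+CO it was the most abundant of the 5 restricted subunits. The log2 ratio was 2.13 for Cas+CO over Sham and −1.45 for Cas+T over Cas+CO. After median scaling the ratio for Cas+T over Cas+CO was −0.997, just within the limit.

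Because macrophages and osteoclasts share d2, their markers are set beside it. Of 18 such markers 16 were compared, and 13 of these were higher in Cas+CO than in Sham and none lower, beside 37.5% and 6.49% of all genes. After median scaling 7 were higher and none lower, beside 13.0% and 11.7%. Their summed level was 231 TPM in Cas+T, 1354 TPM in Cas+CO and 228 TPM in Sham. The macrophage scavenger marker Cd68 was at 8.98 TPM in Cas+T, 37.3 TPM in Cas+CO and 11.2 TPM in Sham, the osteoclast protease gene Ctsk at 0.86 TPM in Cas+T, 17.9 TPM in Cas+CO and 0.57 TPM in Sham, and the fusion gene Ocstamp at 0 TPM in Cas+T, 0.04 TPM in Cas+CO and 0 TPM in Sham. Tcirg1, the a3 subunit of osteoclasts and immune cells, was at 6.60 TPM in Cas+T, 37.9 TPM in Cas+CO and 5.56 TPM in Sham, with a log2 ratio of 2.57 for Cas+CO over Sham. Set against Cas+CO, Cas+T was lower for 13 of the 16 markers and higher for none, beside 23.4% and 6.91% of all genes. With medians made equal it was lower for 10, beside 11.9%. Much of the sum in Cas+CO came from Lyz2, the lysozyme gene of myeloid cells, at 84.5 TPM in Cas+T, 496 TPM in Cas+CO and 34.1 TPM in Sham, and from Spp1 (osteopontin) and the macrophage elastase gene Mmp12. Spp1 was at 0.56 TPM in Cas+T, 221 TPM in Cas+CO and 0.88 TPM in Sham, and Mmp12 at 0.50 TPM in Cas+T, 161 TPM in Cas+CO and 0.15 TPM in Sham. Relative to the summed markers, Atp6v0d2 stood at 0.168 in Cas+T, 0.0795 in Cas+CO and 0.104 in Sham, so Cas+CO was the lowest. Relative to Cd68 alone it stood at 4.33 in Cas+T, 2.88 in Cas+CO and 2.11 in Sham, so the order of Cas+CO and Sham turned with the marker chosen. The part of these cells in the level of Atp6v0d2 was not tested.

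The 2 general subunits among the 10 genes differed from each other. Atp6v1a (ENSMUSG00000052459; chromosome 16, 44085402 to 44139705, minus strand) encodes A, the subunit that splits ATP, for which mice have no second form. It was at 56.0 TPM in Cas+T, 92.3 TPM in Cas+CO and 36.6 TPM in Sham, the order seen for 4 of the 5 restricted subunits. Its log2 ratio of 1.31 for Cas+CO over Sham was past the limit as deposited, but not after median scaling (0.53) or when the 50 most abundant genes of any library were left out of the total (0.99). Atp6v1e1 (ENSMUSG00000019210; chromosome 6, 120794305 to 120822793, minus strand), the widely made form of a stalk subunit, was the most abundant of the 10 genes in every library, at 185 TPM in Cas+T, 165 TPM in Cas+CO and 168 TPM in Sham. Its log2 ratio was −0.03 for Cas+CO over Sham. Among genes at 1 TPM or more, Atp6v1e1 stood close to percentile 95.3 in Cas+T, 95.2 in Cas+CO and 95.3 in Sham, while Atp6v1b1 was at 38.3 in Cas+T, 72.2 in Cas+CO and 26.9 in Sham. The ratio of Atp6v1a to Atp6v1e1, which no scaling of a library alters, was 0.303 in Cas+T, 0.560 in Cas+CO and 0.218 in Sham.

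Sequence upstream of the start site was examined because Foxi1 binds DNA through a forkhead domain and several of the genes shared one order of levels. RefSeq promoters (GRCm38.p6) were at hand for 8 of the 10 genes, and the 250 bases before each start were searched on both strands for the forkhead motif TGTTTAC and its core TGTTT, which lies within the longer motif. TGTTTAC was found in 1 of the 8, Atp6v1b1, and in 3.17% of 32851 RefSeq promoters of the same length. TGTTT was found in 4 of the 8 (Atp6v1b1, Atp6v1g3, Atp6v1a and Foxi1) and in 46.4% of all promoters. In Atp6v1b1 the longer motif began at position −98, counted from −1 for the base before the start, and a core on the opposite strand began at −59. Atp6v1g3 held the core at −136 and, on the opposite strand, at −65 and −39. Positions −230 to −31 are printed for Atp6v1b1, which held the longer motif and had the largest ratio, for Atp6v1g3 with most matches to the core, for Foxi1, and for Atp6v1c2, which held neither and was lowest in Cas+CO. Atp6v0a4, Dmrt2 and Atp6v1e1 also held neither, with log2 ratios for Cas+CO over Sham of 2.26, 2.23 and −0.03. Their windows and that of Atp6v1a overlap annotated exons and are not printed. Capitals mark the motif or its core on either strand. Positions are counted from the RefSeq start, which differs from the GENCODE start for Atp6v1b1, Atp6v1c2 and Atp6v1a. The Atp6v1c2 window and the core match of Atp6v1a lie inside the longer GENCODE genes. A match describes the letters and shows no binding.
Atp6v1b1, chr6:83742787-83742986, plus strand: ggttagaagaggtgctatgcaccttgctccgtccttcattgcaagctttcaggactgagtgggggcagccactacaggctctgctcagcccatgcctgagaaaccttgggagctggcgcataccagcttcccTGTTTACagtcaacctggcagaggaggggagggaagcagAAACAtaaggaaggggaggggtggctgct
Atp6v1g3, chr1:138273508-138273707, plus strand: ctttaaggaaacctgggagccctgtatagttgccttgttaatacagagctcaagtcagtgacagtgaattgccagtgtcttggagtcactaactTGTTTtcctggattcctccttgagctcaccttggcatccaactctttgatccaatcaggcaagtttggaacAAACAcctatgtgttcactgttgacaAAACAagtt
Foxi1, chr11:34208120-34208319, minus strand: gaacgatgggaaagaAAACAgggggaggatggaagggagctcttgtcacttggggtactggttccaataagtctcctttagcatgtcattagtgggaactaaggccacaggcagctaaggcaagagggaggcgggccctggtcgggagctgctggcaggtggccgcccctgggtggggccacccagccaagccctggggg
Atp6v1c2, chr12:17324761-17324960, minus strand: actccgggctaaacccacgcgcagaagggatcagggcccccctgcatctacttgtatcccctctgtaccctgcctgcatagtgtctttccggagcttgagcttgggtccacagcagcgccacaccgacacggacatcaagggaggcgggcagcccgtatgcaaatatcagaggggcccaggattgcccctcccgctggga

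In the Foxi1 group, Foxi1 itself (ENSMUSG00000047861; chromosome 11, 34204338 to 34208089, minus strand) was at 60.4 TPM in Cas+T, 107 TPM in Cas+CO and 27.5 TPM in Sham. Cas+T lay between the other libraries. The log2 ratio was 1.93 for Cas+CO over Sham, −0.82 for Cas+T over Cas+CO and 1.10 for Cas+T over Sham. Foxi1 was the member called higher in Cas+T than in Sham, a call that median scaling (0.76) and scaling without the 50 most abundant genes (0.92) ended. There was less Atp6v1b1 than Foxi1 in every library, at 0.140 times its TPM in Cas+T, 0.323 times in Cas+CO and 0.158 times in Sham.

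Dmrt2 (ENSMUSG00000048138; chromosome 19, 25672411 to 25678991, plus strand), a DM-domain transcription factor also made by kidney intercalated cells, was at 11.1 TPM in Cas+T, 36.8 TPM in Cas+CO and 7.08 TPM in Sham. Its log2 ratio was 2.23 for Cas+CO over Sham and −1.65 for Cas+T over Cas+CO, past the limit as deposited and after median scaling. Slc4a9 (ENSMUSG00000024485; chromosome 18, 36528147 to 36556273, plus strand), the anion exchanger AE4 of kidney intercalated cells, was at 0.27 TPM in Cas+T, 0.31 TPM in Cas+CO and 0.07 TPM in Sham. It stayed under 1 TPM in all 3 libraries and was not compared.

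The restricted subunits were next compared with all general subunits of the pump, a list of 16 that holds Atp6v1a, Atp6v1e1 and the accessory subunits Atp6ap1 and Atp6ap2. In Cas+CO against Sham, 4 of 5 restricted subunits were higher and none lower, while 1 of 16 general subunits, Atp6v1a, was higher and none lower, beside 37.5% higher and 6.49% lower over all genes. After median scaling (13.0% higher and 11.7% lower over all genes) 3 of 5 restricted subunits were higher and 1 lower, and none of the 16 general subunits was higher and 3 were lower: Atp6v1g1, Atp6v0e and Atp6v0d1. The median log2 ratio was 2.13 for the restricted and 0.21 for the general subunits, a difference of 1.93. In Cas+T against Cas+CO, 3 of 5 restricted and none of 16 general subunits were lower (23.4% over all genes) and none of either list was higher (6.91%), with medians of −1.45 and −0.07 and a difference of −1.37. With medians made equal (9.40% higher and 11.9% lower over all genes), 2 restricted subunits were lower and 1, Atp6v1c2, higher, and 2 general subunits, Atp6v1g1 and Atp6v0e, were higher. In Cas+T against Sham no subunit of either list passed the limit, and the medians of 0.51 and 0.15 differed by 0.36. Summed over each list, restricted subunits held 142 TPM in Cas+T, 275 TPM in Cas+CO and 97.5 TPM in Sham, and general subunits 2000 TPM in Cas+T, 1874 TPM in Cas+CO and 1833 TPM in Sham.

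**Figure D2:**
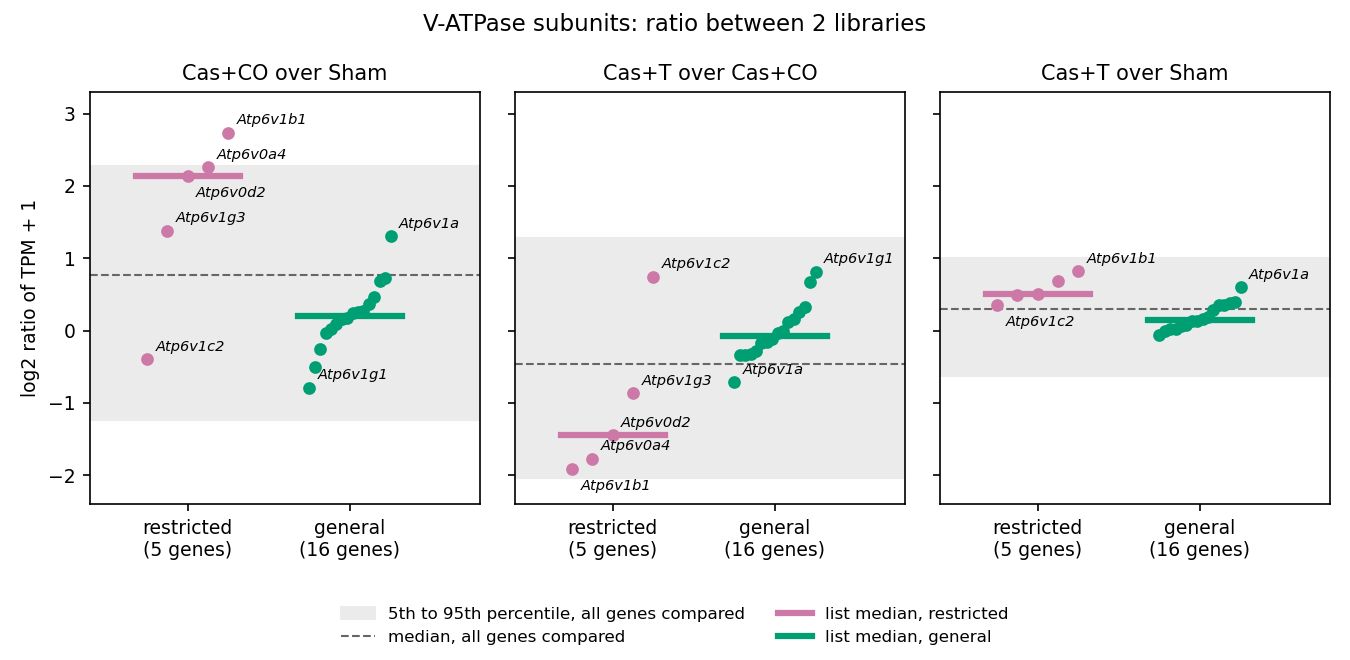
Log2 ratio of TPM + 1 for the 5 restricted and 16 general V-ATPase subunits in each pair of libraries; each point is a gene, coloured bars are list medians, the dashed line is the median of all genes compared and the grey band their 5th to 95th percentile. In Cas+CO over Sham the restricted median is 2.13 and the general median 0.21, with Atp6v1c2 below most general subunits and Atp6v1a above the other 15.

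The most abundant general subunit was Atp6v1g1, the common G subunit, at 318 TPM in Cas+T, 180 TPM in Cas+CO and 312 TPM in Sham. It also had the lowest ratio of the list for Cas+CO over Sham, −0.79 on the log2 scale. Atp6v0e, a small membrane subunit, showed the same order of libraries at 275 TPM in Cas+T, 173 TPM in Cas+CO and 246 TPM in Sham. Atp6v0c, the proteolipid of the rotor ring, was at 155 TPM in Cas+T, 196 TPM in Cas+CO and 163 TPM in Sham, and Atp6v1b2, the common B subunit, at 68.4 TPM in Cas+T, 63.0 TPM in Cas+CO and 52.5 TPM in Sham. The highest ratio for Cas+CO over Sham after that of Atp6v1a was 0.72, for Atp6v0a2, a Golgi and endosome form of the a subunit at 20.5 TPM in Cas+T, 26.1 TPM in Cas+CO and 15.4 TPM in Sham.

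The remaining general subunits lay between −0.26 and 0.68 on the log2 scale for Cas+CO over Sham. Atp6v0d1, the common d subunit, was at 89.0 TPM in Cas+T, 70.5 TPM in Cas+CO and 84.7 TPM in Sham, and Atp6v0a1, a common a subunit, at 97.4 TPM in Cas+T, 81.4 TPM in Cas+CO and 79.8 TPM in Sham. Atp6v1c1, the common C subunit, was at 52.3 TPM in Cas+T, 63.8 TPM in Cas+CO and 45.9 TPM in Sham. Each of these partners of a restricted subunit thus stayed within 2-fold in every pair of libraries as deposited. Atp6v0b, a second proteolipid, was at 137 TPM in Cas+T, 172 TPM in Cas+CO and 107 TPM in Sham. Ratios of 0.36 or less were found for Atp6v1h, Atp6v1d, Atp6v1f, Atp6ap1 and Atp6ap2.

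A share of the restricted form among the restricted and general forms of its subunit needs no scaling between libraries, because numerator and denominator come from the same library. For B, the restricted Atp6v1b1 made up 10.99% of the TPM of Atp6v1b1 and Atp6v1b2 in Cas+T, 35.6% in Cas+CO and 7.67% in Sham. For G, Atp6v1g3 made up 12.0% beside Atp6v1g1 in Cas+T, 30.7% in Cas+CO and 8.79% in Sham. For a, Atp6v0a4 made up 5.74% beside Atp6v0a1 and Atp6v0a2 in Cas+T, 20.1% in Cas+CO and 4.84% in Sham. In these subunits the common form remained the larger part in every library. Forms known from other tissues were left out of these shares. For a this was Tcirg1, above Atp6v0a4 in Cas+CO at 37.9 TPM, and for G it was Atp6v1g2, at 13.2 TPM in Cas+CO. Counting them would make the shares of a and G smaller.

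For d, the restricted Atp6v0d2 made up 30.4% beside Atp6v0d1 in Cas+T, 60.4% in Cas+CO and 21.9% in Sham, and only in Cas+CO did it exceed the common form. For C, Atp6v1c2 made up 45.8% beside Atp6v1c1 in Cas+T, 28.9% in Cas+CO and 42.9% in Sham. The shares of B, G, a and d were thus highest in Cas+CO and lowest in Sham, and that of C was lowest in Cas+CO. The labels do not say how reads shared by related genes were divided.

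**Figure D3:**
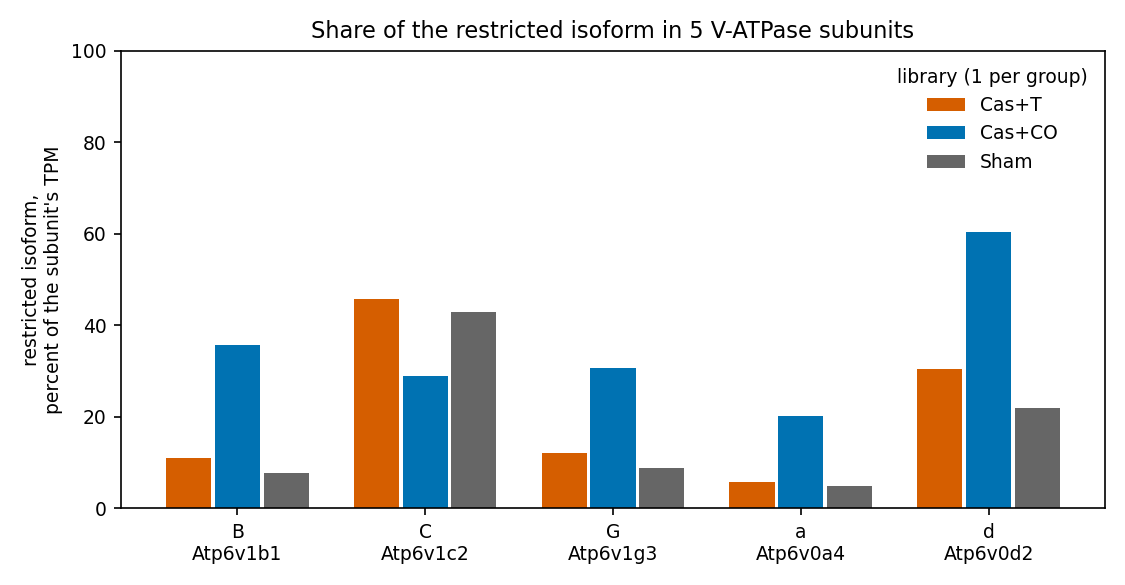
Restricted isoform as a percent of the summed TPM of it and its general paralogs in the Cas+T, Cas+CO and Sham libraries. The subunits are B, C, G, a and d, and Tcirg1 and Atp6v1g2 were left out. Bars start at 0, and 1 library per group gives no error. The Cas+CO bar is the tallest for B, G, a and d and the shortest for C, where it stands at 28.9%.

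The summed level of restricted and general isoforms, again without Tcirg1 and Atp6v1g2, differed less. For B it was 76.8 TPM in Cas+T, 97.7 TPM in Cas+CO and 56.9 TPM in Sham, so Cas+CO stood 1.72-fold above Sham. For d the sum was 128 TPM in Cas+T, 178 TPM in Cas+CO and 108 TPM in Sham, and for a 125 TPM in Cas+T, 134 TPM in Cas+CO and 100.1 TPM in Sham. The sum for G was 361 TPM in Cas+T, 260 TPM in Cas+CO and 342 TPM in Sham, with Cas+CO the lowest although Atp6v1g3 was highest there. For C the sums lay between 80.5 and 96.4 TPM in the 3 libraries. The level of Atp6v1a relative to the summed B isoforms was 0.729 in Cas+T, 0.944 in Cas+CO and 0.644 in Sham.

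Forms known from other tissues and factors that assemble the pump were also read. Atp6v1e2, the testis form of E, was listed at 0 in Cas+T and Cas+CO and at 0.23 TPM in Sham. Atp6v1g2, a brain form of G, was at 5.92 TPM in Cas+T, 13.2 TPM in Cas+CO and 6.56 TPM in Sham, and Atp6v0e2 was between 36.6 and 43.4 TPM in the 3 libraries. Of 9 assembly and regulatory genes, 4 were higher in Cas+CO than in Sham and none lower, beside 37.5% and 6.49% of all genes. Their median log2 ratio was 0.50, beside 0.76 over all genes. After median scaling 1 was higher and none lower, beside 13.0% and 11.7%. That gene was Oxr1, whose TLDc-domain protein binds the pump, at 77.0 TPM in Cas+T, 217 TPM in Cas+CO and 60.3 TPM in Sham. Dmxl1 and Dmxl2, rabconnectins that act in rejoining V1 with V0, were at 8.81 and 5.76 TPM in Cas+T, 15.99 and 9.47 TPM in Cas+CO, and 5.80 and 3.52 TPM in Sham. Ncoa7, another TLDc protein, was at 6.31 TPM in Cas+T, 11.9 TPM in Cas+CO and 5.03 TPM in Sham. The assembly factors Vma21, Tmem199 and Ccdc115 lay within 2-fold in every pair, with log2 ratios for Cas+CO over Sham of 0.50, 0.16 and −0.10.

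Lysosomes carry the common pump in all cells. Of 24 lysosome genes, 5 were higher and 3 lower in Cas+CO than in Sham, beside 37.5% and 6.49% of all genes. After median scaling 2 were higher and 5 lower, beside 13.0% and 11.7%. The median log2 ratio of the list was 0.62, beside 0.76 over all genes. The cathepsin Ctsz was at 15.4 TPM in Cas+T, 70.6 TPM in Cas+CO and 13.6 TPM in Sham, and the sterol carrier Npc2 at 790 TPM in Cas+T, 222 TPM in Cas+CO and 1102 TPM in Sham. Genes of the list thus lay on both sides of the limit.

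Other genes of acid-base cells in kidney, airway and inner ear were split. Of 21 listed, 18 were in the files and 13 were compared in Cas+CO and Sham. Of these, 8 were higher and 4 lower, beside 37.5% and 6.49% of all genes. After median scaling 3 were higher and 4 lower, beside 13.0% and 11.7%. The median log2 ratio of the list was 1.08, beside 0.76 over all genes. Kit, a receptor tyrosine kinase that mast cells also carry, was at 13.4 TPM in Cas+T, 67.6 TPM in Cas+CO and 7.83 TPM in Sham. Hepacam2, an adhesion protein of kidney intercalated cells, was at 11.4 TPM in Cas+T, 38.2 TPM in Cas+CO and 4.95 TPM in Sham, and Tfcp2l1, a factor that acts with Foxi1 in the kidney, at 15.8 TPM in Cas+T, 31.2 TPM in Cas+CO and 8.67 TPM in Sham. The order of levels in these 3 genes was that of Foxi1.

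Rhcg, an ammonia channel, was lowest in Cas+CO, with 169 TPM in Cas+T, 1.02 TPM in Cas+CO and 105 TPM in Sham, a log2 ratio of −5.71 for Cas+CO over Sham. Car2, the cytosolic carbonic anhydrase, was at 71.9 TPM in Cas+T, 16.5 TPM in Cas+CO and 55.6 TPM in Sham. Aqp6, a water channel of intercalated cells, was at 2.28 TPM in Cas+T, 0.69 TPM in Cas+CO and 11.8 TPM in Sham, and Cftr, the chloride channel, at 2.62 TPM in Cas+T, 2.24 TPM in Cas+CO and 6.01 TPM in Sham. For Aqp6 and Cftr the Cas+T library stayed nearer to Cas+CO than to Sham in TPM. Set against Cas+CO, Cas+T was higher for 2 and lower for 3 of the 13 genes, beside 6.91% and 23.4% of all genes. With medians made equal it was higher for 3 and lower for 2, beside 9.40% and 11.9%. Rhcg had the largest ratio, 6.40. Slc4a1 and Slc26a4, exchangers of kidney intercalated cells, and Hmx2 were at or under 0.10 TPM in every library.

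**Figure D4:**
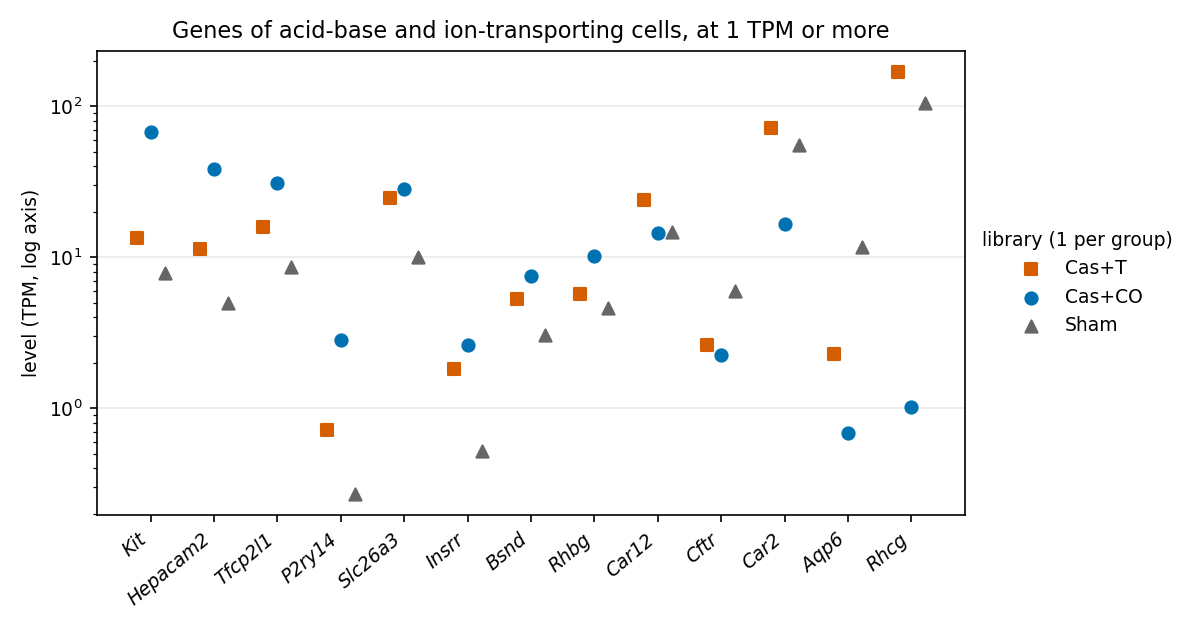
Level in TPM on a log axis of the 13 acid-base cell genes that reached 1 TPM in at least 1 library, in the Cas+T, Cas+CO and Sham libraries, ordered by the ratio of Cas+CO over Sham; 1 point per library, no error bars. Kit stands at 67.6 TPM in Cas+CO, above the other libraries, and Rhcg at 1.02 TPM, below them.

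Markers of other cells of the tissue were read beside the shares of all genes. In Cas+CO against Sham these shares were 37.5% higher and 6.49% lower, and 13.0% and 11.7% after median scaling. Principal cell markers were lower in Cas+CO than in Sham for 7 of 8 (8 after median scaling), with a summed level of 67745 TPM in Cas+T, 7285 TPM in Cas+CO and 91649 TPM in Sham, none of them at 0. Of 10 general epithelial markers 1 was higher and none lower (none and 1 after median scaling), with sums of 2563 TPM in Cas+T, 2459 TPM in Cas+CO and 2008 TPM in Sham. Of 6 basal cell markers 2 were higher and 1 lower, and all 9 adipocyte markers were higher (the same counts after median scaling). Adipocyte markers summed to 122 TPM in Cas+T, 2248 TPM in Cas+CO and 44.4 TPM in Sham. Median log2 ratios for Cas+CO over Sham were −5.97 for principal cell, 0.60 for epithelial, 0.70 for basal and 5.18 for adipocyte markers. Over all genes the median was 0.76. Relative to the summed epithelial markers, the 5 restricted subunits together were 0.0554 in Cas+T, 0.112 in Cas+CO and 0.0486 in Sham, 2.30-fold higher in Cas+CO than in Sham. Foxi1 relative to the same sum was 0.0235 in Cas+T, 0.0437 in Cas+CO and 0.0137 in Sham, 3.19-fold higher in Cas+CO than in Sham. The part of the other cell types in the levels of the pump genes was not tested.

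Among 10153 genes at 10 TPM or more in at least 1 library, the profile over the 3 libraries nearest to the mean of the 5 restricted subunits was that of Cebpz, followed by Clu, Gmip, Tead3, 1810026B05Rik and Angptl2. That mean includes Atp6v1c2, with a log2 ratio of −0.40 for Cas+CO over Sham, where the other restricted subunits had 1.38 to 2.74. Likeness to the mean is therefore not likeness to each subunit. Nearness was the Euclidean distance of log2(TPM + 1) centred on its mean over 3 libraries, and it was under 0.25 for 766 genes, or 7.55%. For Foxi1 the nearest were Hps4, Gm28036, Luc7l, Hjurp, 3000002C10Rik and Atp13a3, and 183 genes lay within 0.25. Cebpz, a CCAAT-binding protein, was at 13.7 TPM in Cas+T, 29.4 TPM in Cas+CO and 8.92 TPM in Sham. Clu, the abundant secreted chaperone clusterin, was at 12333 TPM in Cas+T, 25834 TPM in Cas+CO and 8368 TPM in Sham. Hps4, which acts in the making of lysosome-related organelles, was at 9.11 TPM in Cas+T, 16.8 TPM in Cas+CO and 3.76 TPM in Sham. With 3 libraries many genes share a profile, and the likeness is a description of these libraries.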

How the data were processed

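Epididymis RNA was extracted with a column kit and sequenced from Illumina libraries, per the labels' protocols. The authors deposited 1 log2 value per gene and library. No header or label names its unit: 2 to the power of the value, minus 1, summed to 1000000 in each library and gave multiples of 0.01 below 1000 TPM, so the values were read as log2(TPM + 1). The aligner, the counting tool and its genome build: not given in the sources used here. Rows without a symbol (937 of 23538) were named by identifier from the GENCODE M21 table (934 matched), and rows of 1 symbol were summed to 23501 genes. Coordinates are those of GENCODE M21 (GRCm38) for the same identifiers. Ratios used a pseudocount of 1, a minimum of 1 TPM and a 2-fold limit. The code was tested on simulated data. The members and the 12 gene lists were chosen with earlier results of these data known. The rule for named genes took all 10 members, the V-ATPase lists and the 6 nearest profiles. Of each other list it took the defining markers and up to 4 genes with the largest ratio per comparison. Not every gene under this rule is described. Markers of principal, epithelial, basal and adipocyte cells are given as lists only. Alternatives were other pseudocounts, minimums, scalings and limits. Values were computed with pandas 2.3.3 and NumPy 2.4.6 under Python 3.11.15 and drawn with matplotlib 3.10.9.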

Additional observations from a re-analysis of the deposited data

How the results depend on the processing

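Of 136 single-gene ratios recomputed under another pseudocount, minimum or scaling, 128 kept their side of the 2-fold limit and their sign if called, 6 dropped within it, 2 passed it and none reversed. All 8 changes came with a change of scaling, 6 with equal medians and 2 without the 50 most abundant genes. A change of the minimum decides only which genes are compared and leaves each ratio as it was. Ratios under another minimum therefore could not change and say nothing on stability. Scaling to equal medians or without the 50 most abundant genes left 0 members higher in Cas+T than in Sham. A 4-fold limit left 4 members higher in Cas+CO than in Sham, 0 higher in Cas+T than in Sham, and 0 lower in Cas+T relative to Cas+CO; the added 1 TPM kept Atp6v1b1 under that limit. The difference between restricted and general medians ranged from 1.61 to 1.99 for Cas+CO over Sham, from −1.54 to −1.25 for Cas+T over Cas+CO and from 0.34 to 0.45 for Cas+T over Sham. With list means in place of medians it was 1.43, −1.05 and 0.38 in the same order of comparisons. Those ranges include leaving out Atp6v1c2 or Atp6v0d2, which was added after the data were seen. Leaving out either gene set both ends of the ranges for Cas+CO over Sham and for Cas+T over Cas+CO. Scaling shifts both lists alike apart from the pseudocount, so it could hardly move this difference. Nor could another minimum in the comparisons with Cas+CO, where every subunit of both lists passed it. Those settings say nothing on the stability of the difference. With Atp6v0a1 alone as the partner, the share of Atp6v0a4 was 6.87% in Cas+T, 24.9% in Cas+CO and 5.72% in Sham. No paired analysis was possible because each group has 1 library. The depth is unknown, so levels under 1 TPM, such as those of Slc4a9, cannot be ranked.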

Other observations

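The protein-coding genes next to each of the 10 genes on the chromosome (RefSeq, GRCm38.p6) were read after the values of the 10 genes had been seen. Of 20 neighbours 18 were in the files and 15 were compared in Cas+CO and Sham: 8 were at least 2-fold higher, 1 lower and 6 within, beside 37.5% higher and 6.49% lower over all genes. After median scaling 4 were higher (Ttpa, Ptprc, Tmem213 and Lcp2), 1 lower and 10 within, beside 13.0% higher and 11.7% lower over all genes. Tmem213, next to Atp6v0a4, was at 1.33 TPM in Cas+T, 7.46 TPM in Cas+CO and 0.66 TPM in Sham, the order of Atp6v0a4 itself. Svopl, on the other side of Atp6v0a4, was lowest in Cas+CO, with 7.57 TPM in Cas+T, 5.55 TPM in Cas+CO and 5.95 TPM in Sham. Pdia6, a protein disulfide isomerase of the endoplasmic reticulum next to Atp6v1c2, was at 962 TPM in Cas+T, 399 TPM in Cas+CO and 812 TPM in Sham, the order of Atp6v1c2. Nol10, on the other side of Atp6v1c2, was lowest in Sham, with 9.30 TPM in Cas+T, 9.27 TPM in Cas+CO and 7.48 TPM in Sham.

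Leukocyte genes flank some of the others. Ptprc, which encodes the leukocyte antigen CD45 and lies next to Atp6v1g3, was at 1.35 TPM in Cas+T, 11.8 TPM in Cas+CO and 1.14 TPM in Sham. Lcp2 and Dock2, signalling genes of blood cells on the 2 sides of Foxi1, were at 1.36 and 0.38 TPM in Cas+T, 4.38 and 2.38 TPM in Cas+CO, and 0.72 and 0.45 TPM in Sham. Both stood far below Foxi1 in level in every library.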
